A study of Rattus norvegicus with 11 samples.

Results

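Genes that the tumour suppressor p53 switches on were followed in brain RNA of rats that lack normal CSB. The members were chosen by name from known p53 targets: Cdkn1a, Mdm2, Ccng1, Phlda3, Bax, Sesn1, Gdf15, Tp53inp1, Zmat3 and Plk2. Earlier results of these data were known when they were chosen. Of these 10, the deposited files name 7, and all 7 are among the 20956 features tested; Cdkn1a, Mdm2 and Zmat3 were not analysed here. The 11 libraries are labelled as cerebellar cortex of Sprague-Dawley rats aged 10 weeks. Of these, 6 come from homozygotes of R571X, a truncating mutation of CSB, the product of Ercc6, 2 from heterozygous rats, whose second allele the genotype label writes as a minus sign, and 3 from wild-type rats. No group received a treatment according to the labels. Nothing in the labels ties a library to an animal of its own; the p-values hence reflect variation among libraries, part of which may be technical.

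In homozygous rats Gdf15 was higher than in wild-type rats in every library, a pattern of 1.08% of features. It rested on few reads and was not past the threshold once all features were counted. Sesn1 and Plk2 were higher in the 3 homozygous libraries than in the 2 heterozygous ones with which they were normalized. That pattern was shared by 15.2% of features, and both genes were again short of the threshold. Phlda3 overlapped between genotypes but not between libraries with and without reads of the Y-linked gene Eif2s3y. Ccng1, Bax and Tp53inp1 overlapped between the groups in each comparison. No member passed an adjusted p under 0.05 in any comparison.

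p53 is a transcription factor that is kept scarce by the ubiquitin ligase Mdm2 and that accumulates after DNA damage or stalled transcription. It then binds response elements in its targets, which stop the cell cycle, repair DNA, restrain growth signalling or trigger apoptosis. Loss of CSB, which acts in transcription-coupled repair, causes Cockayne syndrome in people, with damage to the cerebellum and white matter among its features.

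Each library held between 5406669 and 8723823 reads assigned to features. The deposited values are reads divided by 1 factor per library, called normalized reads below, and the libraries had been normalized in 2 sets. Set 1 holds homozygous replicates 1 to 3 and the heterozygous pair, set 2 holds homozygous replicates 4 to 6 and the wild-type trio, and values are listed in replicate order. Groups were therefore compared inside a set, and levels over all libraries come from reads scaled together. The mutated gene itself, Ercc6, had 85.8 to 123 normalized reads in homozygous replicates 4 to 6, against 295 to 407 in wild type (log2 difference -1.69, limma adjusted p = 0.0171). That call was lost without homozygous replicate 4 (limma adjusted p = 0.0685), homozygous replicate 6 (0.0644), wild-type replicate 2 (0.0766) or wild-type replicate 3 (0.148). It was also lost with the libraries of set 2 alone (0.143) and with Eif2s3y as a covariate (0.187). With the replicate block on libraries scaled together with no set term, the limma adjusted p was 0.678 (log2 difference -1.19). Replicates 4 to 6 occur only as homozygous libraries, so the block leaves them out of that estimate. It compares homozygous replicates 1 to 3 with wild type across the sets and is no check of the difference inside set 2. In set 1 Ercc6 had 153 to 158 in homozygous libraries and 178 to 228 in heterozygous ones. Markers bear on the tissue label in different ways. Calb1 and Neurod1, which cerebellar neurons share with other neurons, were present in all 11 libraries, at 538 to 3364 and 35.4 to 317 normalized reads. Pcp2, which marks Purkinje cells, was at 0 in homozygous replicates 4 to 6 and in 2 of 3 wild-type libraries, at 2.19 normalized reads in the other, and not listed in set 1. Neurod6 and Emx1, which mark forebrain neurons, were present in all 11 libraries, at 331 to 1985 and 207 to 559 normalized reads. Eif2s3y had 669 to 1875 reads in 5 libraries, namely homozygous replicates 2, 3, 4 and 6 with heterozygous replicate 2. The other 6, the wild-type ones among them, had 0 or 1 such read. Ddx3y, listed with Eif2s3y as sex-linked, did not split the libraries in this way. It had 1.17 to 10.8 normalized reads in the 5 libraries with Eif2s3y reads and 1.24 to 8.45 in the other 6.

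RefSeq promoters of build GRCr8, from 250 bases before to 50 bases after the annotated start, were found for 5 of the 7 members (Ccng1, Plk2, Phlda3, Sesn1 and Gdf15). They were searched on both strands for the p53 response element, which is 2 copies of a 10-base half-site, here with no bases between them, for TATAAA and for TGACGTCA, the cAMP response element. The 4 sequences printed here each hold a match and were chosen since they show how differently these promoters are built; capitals mark the match, and positions count from the start of transcription. The Ccng1 window (chr10:25684827-25685126, minus strand) holds a response element of 20 bases with 1 mismatch that begins at position -242. The Sesn1 window (chr20:46948469-46948768, plus strand) holds a half-site with no mismatch at -172. The second of the 2 Gdf15 starts (chr16:18839015-18839314, plus strand) has TATAAA at -28, and the Plk2 window (chr2:43702286-43702585, plus strand) has TGACGTCA at -66.
Ccng1: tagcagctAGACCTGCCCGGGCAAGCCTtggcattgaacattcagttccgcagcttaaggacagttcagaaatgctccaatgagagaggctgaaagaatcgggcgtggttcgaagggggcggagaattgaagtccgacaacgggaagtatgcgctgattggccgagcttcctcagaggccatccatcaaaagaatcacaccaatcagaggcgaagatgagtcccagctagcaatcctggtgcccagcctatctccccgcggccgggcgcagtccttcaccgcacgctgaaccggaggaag
Sesn1: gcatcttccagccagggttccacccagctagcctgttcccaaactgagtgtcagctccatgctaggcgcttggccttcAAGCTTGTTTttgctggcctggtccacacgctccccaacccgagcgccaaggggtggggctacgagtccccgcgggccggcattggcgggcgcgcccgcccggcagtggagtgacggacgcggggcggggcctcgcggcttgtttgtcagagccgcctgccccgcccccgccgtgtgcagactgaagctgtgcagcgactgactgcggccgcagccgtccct
Gdf15: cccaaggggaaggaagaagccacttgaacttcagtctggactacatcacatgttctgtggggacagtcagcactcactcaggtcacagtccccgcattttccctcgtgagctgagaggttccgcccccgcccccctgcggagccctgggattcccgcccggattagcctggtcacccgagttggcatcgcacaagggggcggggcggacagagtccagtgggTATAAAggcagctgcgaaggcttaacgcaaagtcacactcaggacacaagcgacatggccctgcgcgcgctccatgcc
Plk2: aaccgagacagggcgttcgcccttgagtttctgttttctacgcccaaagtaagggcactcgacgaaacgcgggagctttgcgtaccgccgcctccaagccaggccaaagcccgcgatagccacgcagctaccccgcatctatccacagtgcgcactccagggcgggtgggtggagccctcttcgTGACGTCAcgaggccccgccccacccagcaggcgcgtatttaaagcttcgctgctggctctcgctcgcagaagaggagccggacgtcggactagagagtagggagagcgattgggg

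Among the 33469 promoters of the same length, 0.0717% (24) held a response element with at most 1 mismatch and 7.98% held a half-site. TATAAA was in 14.2% and TGACGTCA in 1.83%. The windows of Phlda3 and of the first Gdf15 start held none of these motifs. A match describes the letters of the window and was not tested as a binding site.

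Levels per kilobase of transcript, with all libraries scaled together, spanned a wide range among the 7 members. Ccng1 averaged 1015 ± 160, Plk2 825 ± 276 and Phlda3 594 ± 311 normalized reads per kilobase (SD, n = 11). Bax followed at 99.3 ± 27.0 and Tp53inp1 at 36.6 ± 11.6. Sesn1, at 16.8 ± 6.03, and Gdf15, at 12.9 ± 5.77, were the lowest and lay within each other's spread, as did Plk2 and Phlda3. The mean of Ccng1 lay within the spread of Plk2, but the mean of Plk2 lay outside the spread of Ccng1. Gdf15 rests on 4 to 22 reads per library.

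**Figure D1:**
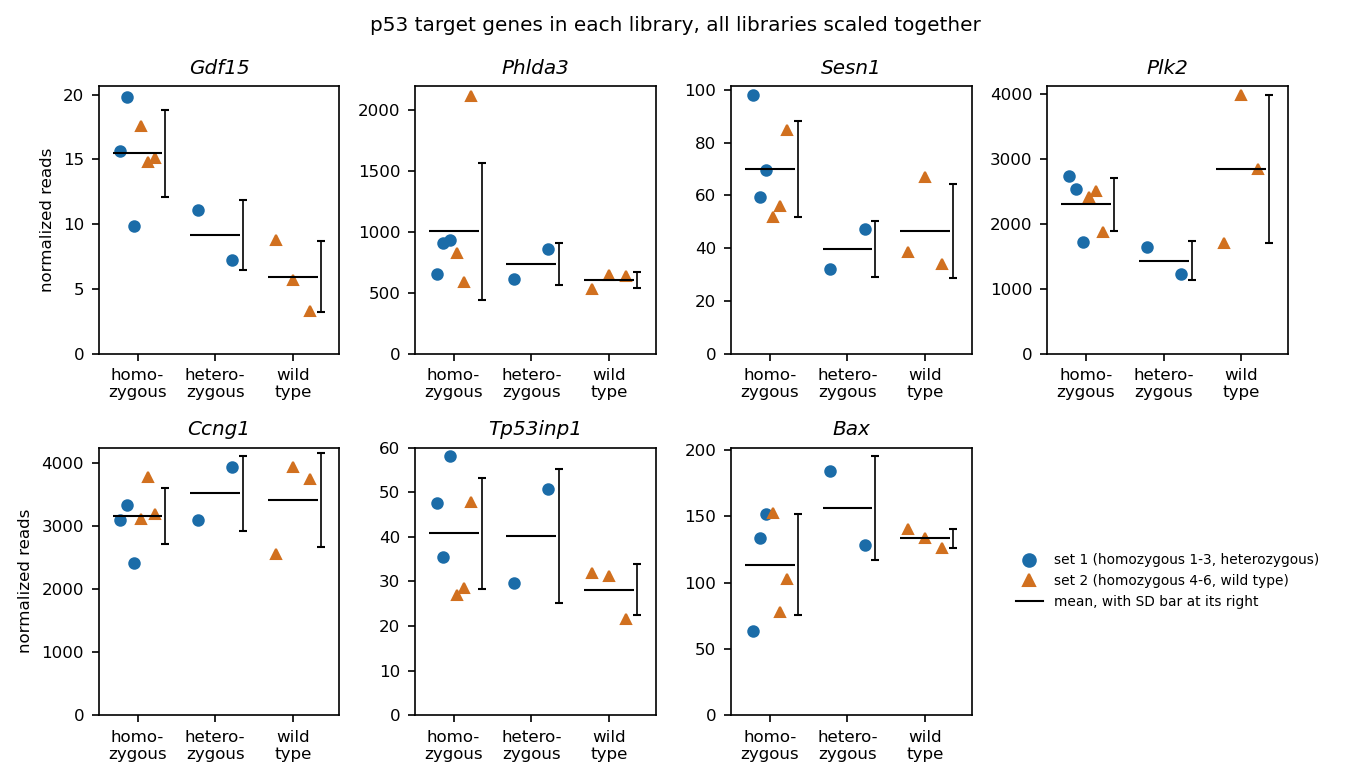
Normalized reads (vertical axis, linear from 0, all libraries scaled together) of the 7 members in the 6 homozygous, 2 heterozygous and 3 wild-type libraries, 1 point per library, with the mean as a line and the SD as a bar. Gdf15 is the only panel in which all 6 homozygous points (9.85 to 19.8) lie above all 3 wild-type points (3.32 to 8.79), and in Phlda3 homozygous replicate 6 stands alone at 2114.

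Gdf15 (ENSRNOG00000019661, rn6 chr16:20555395-20557978, plus strand) encodes a secreted stress cytokine of the TGF-beta family that acts on the hindbrain through its receptor Gfral; rn6 also applies to the gene coordinates that follow. It had 15.9, 20.1 and 9.97 normalized reads in the homozygous libraries of set 1, 17.5, 14.7 and 14.99 in those of set 2, 11.2 and 7.33 in the heterozygous libraries, and 8.75, 5.63 and 3.32 in the wild-type libraries. Homozygous replicates 4 to 6 lay above all wild-type libraries, as in 6.14% of features, whereas homozygous replicate 3 lay below the higher heterozygous library.
Inside set 2 the means were 15.8 ± 1.55 in homozygous and 5.90 ± 2.73 in wild-type libraries (SD, n = 3 each). The log2 difference was 1.35 (SE 0.46, 95% interval 0.36 to 2.35) with an unadjusted p of 0.0115 and an adjusted p of 0.675 in the limma fit. In set 1 they were 15.3 ± 5.10 in homozygous and 9.24 ± 2.71 in heterozygous libraries (n = 3 and 2), a log2 difference of 0.65 (interval -0.46 to 1.76, limma adjusted p = 0.638). Over all libraries scaled together, the 6 homozygous ones averaged 15.5 ± 3.34 and the 3 wild-type ones 5.92 ± 2.74, without overlap. A two-sided exact permutation test over the 84 arrangements gave p = 0.0119, the smallest it can give, which became 1 after adjustment over 20948 features. Of those features 1.08% (226) also had all 6 homozygous libraries above all 3 wild-type ones. The homozygous libraries of set 2 differed from those of set 1 by 0.08 in Gdf15 (log2, interval -0.91 to 1.08).

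In set 2 the only homozygous library without Eif2s3y reads, replicate 5, had 14.7 normalized reads of Gdf15, against 3.32 to 8.75 in wild type, where no library had such reads. With Eif2s3y presence as a covariate the log2 difference from wild type was 1.46 (limma adjusted p = 0.839). Under 21 alternative settings the difference from wild type ranged from 1.03 to 1.64 on the log2 scale, with adjusted p between 0.534 and 1. Scaled together with no set term, the fit also used homozygous replicates 1 to 3. With the replicate block added, it compared those with wild type and left replicates 4 to 6 out of the estimate. Leaving out a library of set 1 cannot change the difference inside set 2, so those settings repeat its estimate. The astrocyte gene Gfap was likewise without overlap, a pattern of 6.14% of features. It had 19108 to 27372 normalized reads in homozygous replicates 4 to 6 against 5832 to 16602 in wild type (log2 difference 1.23, limma adjusted p = 0.484). Of the 7 astrocyte markers tested, Gfap included, 4 had a positive and 3 a negative difference, with a median of 0.03. Over the 7 astrocyte markers together the sums overlapped, at 68157 to 80138 in homozygous replicates 4 to 6 and 49433 to 82640 in wild type, and their part in the Gdf15 difference was not tested. In bulk tissue, less RNA per cell and fewer cells of a type cannot be told apart.

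Phlda3 (ENSRNOG00000009068, chr13:52588917-52592001, plus strand) encodes a small pleckstrin-homology protein that competes with Akt for membrane lipids and so restrains Akt signalling. It had 660, 921 and 948 normalized reads in the homozygous libraries of set 1, 825, 580 and 2098 in those of set 2, 617 and 864 in heterozygous libraries, and 527, 643 and 636 in wild type. Homozygous replicate 6 had more than any other library, and 5 of 6 homozygous libraries exceeded the highest wild-type one when scaled together.
Homozygous replicates 4 to 6 averaged 1168 ± 815 and wild type 602 ± 64.8 (SD, n = 3 each). The log2 difference was 0.74 (SE 0.37, interval -0.06 to 1.53, limma adjusted p = 0.820), which became 0.21 without homozygous replicate 6. In set 1 the difference of homozygous from heterozygous libraries was 0.19 (interval -0.70 to 1.08, limma adjusted p = 0.886). The two-sided exact permutation test over all libraries gave p = 0.179.

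Sorted by Eif2s3y instead of by genotype, Phlda3 did not overlap. The 5 libraries with Eif2s3y reads had 829 to 2114 normalized reads of Phlda3, all libraries scaled together, and the 6 without had 529 to 650. The pattern was noticed in these values. It was shared by 0.224% (47) of 20948 features, and with genotype and set in the limma fit the log2 difference between libraries with and without Eif2s3y reads was 0.74 (SE 0.27, unadjusted p = 0.0172, adjusted p = 0.735), where 0.0191% (4) of features were called. With that term the difference between homozygous and wild type inside set 2 was 0.24. Since no wild-type library has Eif2s3y reads, homozygous and wild type can be compared apart from Eif2s3y only among the libraries without them. Scaled together, these had 650 and 584 in homozygous replicates 1 and 5, against 529 to 646 in wild type, which overlap. In set 1, homozygous replicates 2 and 3 had 921 and 948 normalized reads against 864 in heterozygous replicate 2, all with Eif2s3y reads. Without such reads, homozygous replicate 1 had 660 and heterozygous replicate 1 had 617. Each of these comparisons rests on 1 heterozygous library. None of the other 6 members separated the libraries with Eif2s3y reads from those without.

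**Figure D2:**
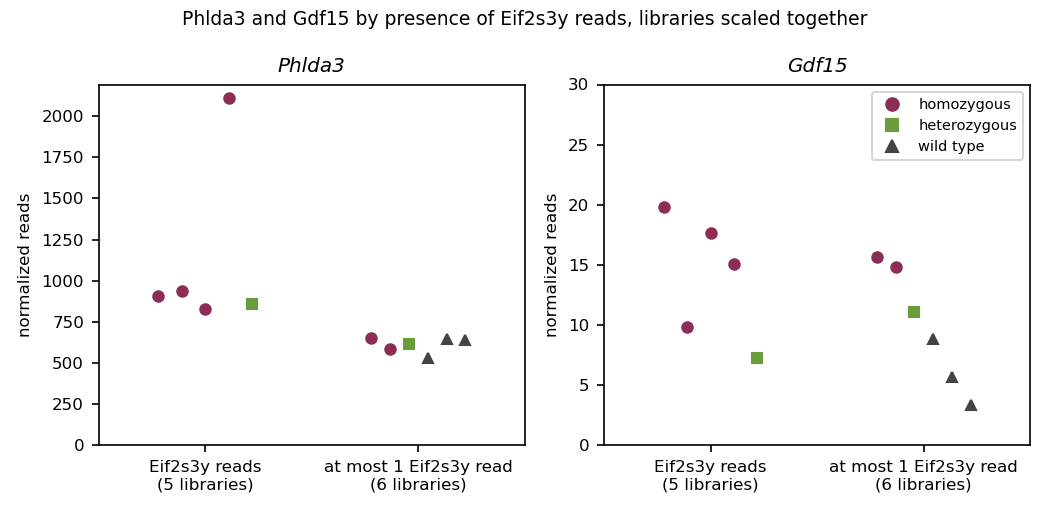
Normalized reads of Phlda3 and Gdf15 (vertical axes, linear from 0, libraries scaled together) in the 5 libraries with Eif2s3y reads and the 6 with at most 1, 1 point per library, with shape and colour for genotype. Phlda3 lies at 829 to 2114 on the left and 529 to 650 on the right without overlap, whereas Gdf15 overlaps between the columns and its 3 wild-type points are the lowest of the right column.

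Sesn1 (ENSRNOG00000000302, chr20:46667121-46758305, plus strand) encodes sestrin 1, a stress protein that dampens mTORC1 signalling. It had 99.5, 60.4 and 70.6 normalized reads in the homozygous libraries of set 1, 51.4, 55.5 and 84.1 in those of set 2, 32.2 and 47.6 in heterozygous libraries, and 38.3, 66.6 and 34.0 in wild type. All 3 homozygous libraries of set 1 lay above both heterozygous ones, as in 15.2% of features, while in set 2 wild-type replicate 2 lay inside the homozygous range.
The log2 difference of homozygous from heterozygous libraries was 0.92 (SE 0.39, interval 0.08 to 1.76, unadjusted p = 0.0334, limma adjusted p = 0.378). That of homozygous from wild-type libraries was 0.48 (SE 0.35, interval -0.27 to 1.23, limma adjusted p = 0.888). The two-sided exact permutation test over 6 homozygous and 3 wild-type libraries gave p = 0.0833, with 3 of 6 homozygous libraries above all wild-type ones. The files also list an assembled feature inside the gene with a sestrin domain (chr20:46736613-46758305) at 1.09 to 6.66 normalized reads, so a few Sesn1 reads may be counted there.

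Plk2 (ENSRNOG00000011951, chr2:41911131-41916901, plus strand) encodes a polo-like kinase that in neurons is induced by activity and remodels synapses. It had 2783, 2575 and 1744 normalized reads in the homozygous libraries of set 1, 2413, 2498 and 1867 in those of set 2, 1653 and 1236 in heterozygous libraries, and 1699, 3969 and 2848 in wild type. The heterozygous libraries were the lowest of the 11, and the wild-type values spanned the homozygous ones.
Its log2 difference was 0.70 for homozygous against heterozygous libraries (SE 0.32, interval 0.00 to 1.39, unadjusted p = 0.0489, limma adjusted p = 0.410) and -0.26 for homozygous against wild type (SE 0.29, interval -0.88 to 0.36, limma adjusted p = 0.930). The heterozygous and the wild-type libraries stand in different sets; their difference, taken through the homozygous libraries, was -0.96 (SE 0.43, unadjusted p = 0.0453, limma adjusted p = 0.623). Of 10 activity-induced genes, with which Plk2 is grouped in neurons, 7 had a positive difference of homozygous from heterozygous libraries (median 0.25). For homozygous against wild type 8 had a negative one (median -0.46), and for heterozygous against wild type also 8 (median -0.65). Of these genes 0 were called, where limma called 0.0382% of all features for homozygous against wild type and 0% in the other comparisons. In set 1 the list's summed level was 8112 to 13255 in homozygous replicates 1 to 3 and 8665 to 14755 in heterozygous libraries, and their part in the Plk2 difference was not tested.

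Ccng1 (ENSRNOG00000003256, chr10:25903911-25910325, minus strand) encodes cyclin G1, which recruits a phosphatase to Mdm2 and takes part in p53 feedback. It had 3142, 3375 and 2444 normalized reads in the homozygous libraries of set 1, 3091, 3750 and 3169 in those of set 2, 3108 and 3968 in heterozygous libraries, and 2546, 3914 and 3740 in wild type. The groups overlapped in both sets. The log2 difference was -0.01 against wild type (SE 0.21, interval -0.46 to 0.44, limma adjusted p = 0.997) and -0.25 against heterozygous (SE 0.23, interval -0.75 to 0.25, limma adjusted p = 0.703). Of the 7 members it had the narrowest interval in each comparison, and its promoter is the one printed above with a nearly complete response element.

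Bax (ENSRNOG00000020876, chr1:101451802-101457207, minus strand) encodes a pore-forming protein of the mitochondrial outer membrane that commits cells to apoptosis. It had 64.2, 136 and 154 normalized reads in the homozygous libraries of set 1, 152, 77.1 and 102 in those of set 2, 185 and 129 in heterozygous libraries, and 140, 133 and 126 in wild type. The homozygous libraries were the more scattered, and homozygous replicates 1 and 5 were the lowest of the 11. The log2 difference was -0.33 against wild type (SE 0.34, interval -1.07 to 0.42, limma adjusted p = 0.928) and -0.48 against heterozygous (SE 0.38, interval -1.31 to 0.34, limma adjusted p = 0.636).

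Tp53inp1 (ENSRNOG00000007964, chr5:24410863-24416888, plus strand) encodes a nuclear protein that promotes p53-dependent apoptosis and takes part in autophagy. It had 48.3, 36.0 and 59.0 normalized reads in the homozygous libraries of set 1, 26.9, 28.3 and 47.5 in those of set 2, 29.7 and 51.3 in heterozygous libraries, and 31.7, 31.0 and 21.6 in wild type. The groups overlapped in both sets. The log2 difference was 0.25 against wild type (SE 0.36, interval -0.53 to 1.03, limma adjusted p = 0.945) and 0.26 against heterozygous (SE 0.40, interval -0.62 to 1.13, limma adjusted p = 0.834). Between the homozygous libraries of set 2 and set 1 it differed by -0.49 (interval -1.27 to 0.29), the largest such difference among the 7 members.

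**Figure D3:**
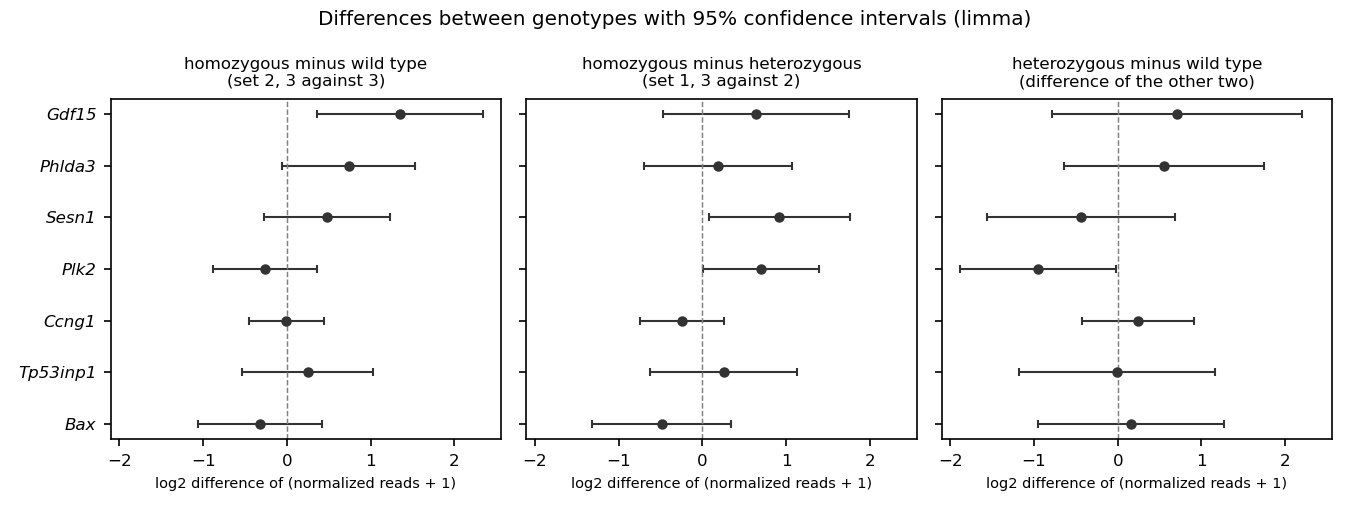
Log2 differences of normalized reads plus 1 (horizontal axes) with 95% confidence intervals from the limma fit for the 7 members, in the comparisons of homozygous with wild type, homozygous with heterozygous, and heterozygous with wild type. The interval excludes 0 for Gdf15 in the first, for Sesn1 and Plk2 in the second and for Plk2 in the third, each before adjustment over all features.

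Counted over the members, 1 of 7 (Gdf15) had an unadjusted p under 0.05 for homozygous against wild type, where 6.35% of all 20956 features did, and 2 of 7 (Sesn1 and Plk2) for homozygous against heterozygous, where 12.1% did. After adjustment 0 of 7 were called in the first, where limma called 0.0382% (8) of all features, and 0 of 7 in the second, where it called 0%, with 2539 features at an unadjusted p under 0.05, 0 calls by edgeR and 205 by DESeq2. For heterozygous against wild type limma also called 0%, with 1669 features at an unadjusted p under 0.05, 0 calls by edgeR and 27 by DESeq2. Between the homozygous libraries of the 2 sets, 0 of 7 members and 0.0239% (5) of features were called. The 3 homozygous libraries of a set exceeded the wild-type ones of that set for 1 of 7 members (Gdf15), against 6.14% of features, and the heterozygous ones for 2 of 7 (Sesn1 and Plk2), against 15.2%. The median log2 difference of the 7 members was 0.25 against wild type, beside 0.00 over all features, and 0.26 against heterozygous, beside 0.04 over all features. The comparisons use different homozygous libraries, and whether members differ between them was not tested. Since the members were chosen with earlier results of these data known, these shares and medians are a description and not a test.

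No pair of members was correlated across libraries past the adjusted threshold. Of 21 pairs over the 11 libraries scaled together, 8 had a positive and 13 a negative correlation, and 0 passed. By Pearson's r the strongest was between Sesn1 and Tp53inp1, with r = 0.64 and rho = 0.56 (two-sided permutation p = 0.0358 and 0.0766, adjusted 0.433 and 0.536) and r = 0.60 without the 2 libraries farthest from the median. By rank the strongest was between Phlda3 and Tp53inp1, with rho = 0.65 and r = 0.52 (two-sided permutation p = 0.0368 and 0.0895, adjusted 0.536 and 0.529). For Sesn1 and Tp53inp1 within sets, given as a description, r was 0.62 over the 5 libraries of set 1 and 0.80 over the 6 of set 2.

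p53 is regulated mainly as a protein, which was not measured. Among 17 listed regulators and relatives of p53, 7 were named in the files. Against wild type 6 had a positive difference, 0 were called and the median was 0.23. For this list and those below, limma called 0.0382% (8) of all features against wild type and 0% against heterozygous. Counts of 0 called against heterozygous would therefore hold for any list. The acetyltransferase Kat5 had 3.51 to 7.93 normalized reads in homozygous replicates 4 to 6 against 0.83 to 1.88 in wild type (log2 difference 1.48, unadjusted p = 0.0207, limma adjusted p = 0.738). At these levels the difference rests on few reads, and homozygous replicates 1 to 3 had 3.61, 5.30 and 1.66. The checkpoint kinase Chek2, which phosphorylates p53, had 21.5 to 31.7 against 14.2 to 17.4 (log2 difference 0.59, limma adjusted p = 0.850). Against heterozygous, 4 of the 7 were positive, with a median of 0.31, and Chek2 had a difference of -0.37.

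Of 13 further targets with roles in arrest and growth, 9 were named; against wild type 6 had a positive difference and the median was 0.05. Ddit4, a stress-induced inhibitor of mTORC1, had 1495 to 2053 normalized reads in homozygous replicates 4 to 6 against 862 to 1515 in wild type (log2 difference 0.62, limma adjusted p = 0.855). Against heterozygous 4 of the 9 were positive, with a median of -0.22. Sfn, the cell-cycle brake 14-3-3 sigma, had 2.49 to 4.24 in homozygous replicates 1 to 3 against 9.92 to 10.99 in heterozygous libraries (log2 difference -1.47, limma adjusted p = 0.347), and Rprm, a mediator of G2 arrest, had 526 to 1013 against 314 to 523 (0.92, limma adjusted p = 0.380). The members of this group thus lay in both directions, and 0 were called in either comparison.

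Of 17 apoptosis targets, 14 were named. Against wild type 8 had a positive difference, 0 were called and the median was 0.16. The nuclease Aen had 9.35 to 21.5 normalized reads in homozygous replicates 4 to 6 against 4.38 to 9.39 in wild type (log2 difference 1.00, limma adjusted p = 0.819), and the death receptor Fas had 16.4 to 37.5 against 12.5 to 18.6 (0.77, limma adjusted p = 0.831). Against heterozygous 10 of the 14 were negative, with a median of -0.33, and 0 were called, as over all features. Tp53inp2, a relative of Tp53inp1 that acts in autophagy, had 2108 to 3259 in homozygous replicates 1 to 3 against 4549 to 6796 in heterozygous libraries (log2 difference -1.04, unadjusted p = 0.000549, limma adjusted p = 0.2005). Pmaip1, which encodes the BH3 protein Noxa, had 138 to 234 against 281 to 552 (-1.17, limma adjusted p = 0.272).

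Of 19 targets in repair and metabolism, 6 were named, of which 4 had a positive difference from wild type, with a median of 0.49, and 0 were called. Pcna, the sliding clamp of DNA replication and repair, had 732 to 1105 normalized reads in homozygous replicates 4 to 6 against 682 to 713 in wild type (log2 difference 0.39, unadjusted p = 0.0483, limma adjusted p = 0.781). Scaled together, each of the 6 homozygous libraries exceeded each of the 3 wild-type ones in Pcna, as in 1.08% (226) of 20948 features. The two-sided exact permutation p for Pcna was 0.0714. No other gene of these target lists was looked at in this way. Gpx1, a glutathione peroxidase, had 1652 to 1832 against 720 to 1670 (0.61, limma adjusted p = 0.757). Against heterozygous all 6 were negative, with a median of -0.30 and 0 called; the largest, Polk, a translesion polymerase, had 125 to 174 against 164 to 361 (-0.77, limma adjusted p = 0.3997).

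The integrated stress response, which also induces Gdf15, was listed for comparison. Of 10 tested genes 9 had a positive difference from wild type, with a median of 0.38, and 0 were called; Trib3 had 7.01 to 11.3 normalized reads in homozygous replicates 4 to 6 against 2.19 to 7.47 in wild type (log2 difference 1.06, limma adjusted p = 0.847) and Ddit3, which encodes CHOP, 643 to 838 against 489 to 645 (0.33, limma adjusted p = 0.839). Their summed level was 1491 to 1766 against 1216 to 1410, without overlap. In set 1 it was 5 of 10, and the sums were 1399 to 1509 in homozygous and 1504 to 1562 in heterozygous libraries. The part of these genes in the Gdf15 values was not tested.

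**Figure D4:**
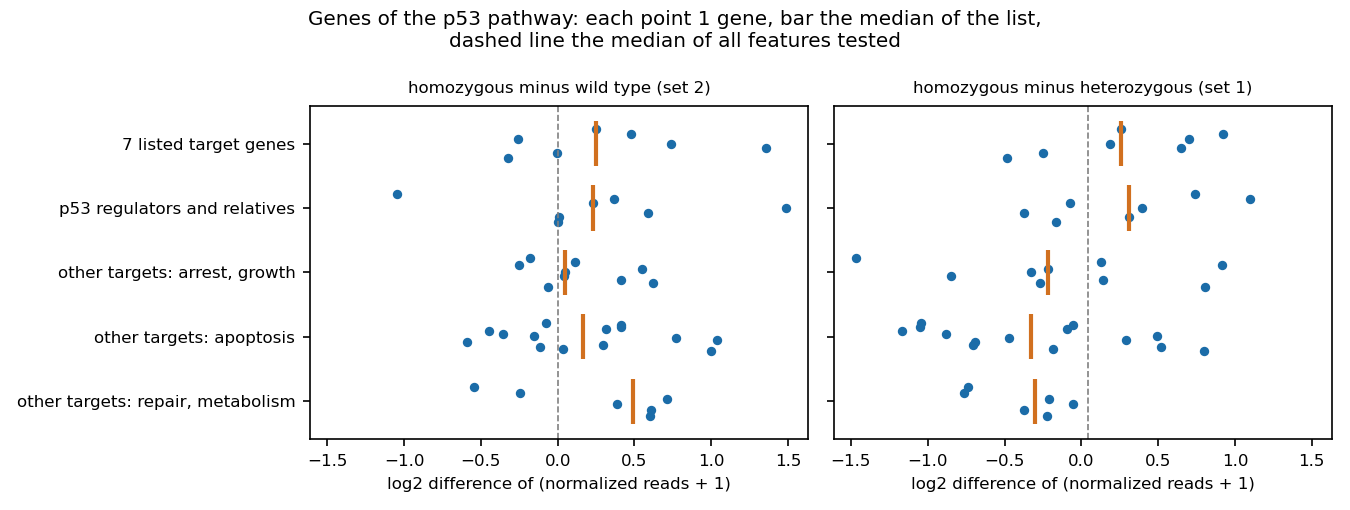
Log2 differences of normalized reads plus 1 (horizontal axes) for each gene of 5 p53-pathway lists, 1 point per gene, with the list median as a bar and the median of all 20956 features as a dashed line, for homozygous against wild type (left) and against heterozygous (right). Medians run from 0.05 to 0.49 on the left and from -0.33 to 0.31 on the right, and no point is a gene that passed the threshold.

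Markers of other cell types were read beside these values. All 6 tested endothelial and pericyte markers had a negative difference of homozygous replicates 1 to 3 from heterozygous libraries. Summed levels were 4833 to 7455 against 12388 to 24577, with a median log2 difference of -1.32 and 0 called in the limma fit. Each of the 6 had an unadjusted limma p under 0.05, where 12.1% of all features did and 0% were called. Against wild type all 6 were also negative, with sums of 4788 to 7845 against 6132 to 9797. There 1 of the 6 (Tek) had an unadjusted limma p under 0.05, where 6.35% of all features did. Oligodendrocyte sums varied within groups, from 7953 to 36107 in homozygous, 13431 to 20056 in heterozygous and 8381 to 23482 in wild-type libraries. The cerebellar granule and Purkinje list, of whose 13 genes 3 were summed, reached 1375 to 3625 in homozygous replicates 1 to 3. Heterozygous libraries had 571 to 1374. The sums barely separated, at 1374.53 in homozygous replicate 2 and 1373.55 in heterozygous replicate 1. Calb1 alone overlapped, at 1231 to 3364 against 538 to 1314 normalized reads, while Neurod1 did not, at 161 to 317 against 35.4 to 65.7. Of its 2 tested genes, Neurod1 had a log2 difference of 2.10 (unadjusted p = 0.00135, limma adjusted p = 0.226) and Calb1 of 1.15 (unadjusted p = 0.0166, limma adjusted p = 0.335). Against wild type the sums overlapped, at 1576 to 2584 in homozygous replicates 4 to 6 and 1520 to 1748 in wild type. Microglial sums were 603 to 1170 in homozygous replicates 4 to 6 against 300 to 924 in wild type, and forebrain neuron sums 1297 to 1891 against 1019 to 2745. The part of cell composition in the differences of Sesn1, Plk2, Tp53inp2 and Pmaip1 in set 1 was not tested.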

How the data were processed

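RNA sequencing of 11 rat brain libraries was analysed. The tools and build named in the submitters' processing notes are FastQC, HISAT2 2.0.4 and rn6; not given in the sources used here are which counter and annotation were used and whether strand was kept. The authors deposited a normalized signal per feature, obtained by dividing reads by 1 factor for each library. All values came out as whole reads within 0.001, and these were recovered. Median-of-ratios factors matched the deposited ones in the 2 sets named above, which share 23093 features; unnamed features took 25.1% to 31.5% of reads. Scaling all libraries together changed them by -1.51% to 0.744%.

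Features with a mean of at least 1 were fitted with limma 3.58.1 (R 4.3.3) on log2(value + 1), which understates changes of low genes, with group and set as terms and Benjamini-Hochberg adjustment over all features. The 6 homozygous and 3 wild-type libraries scaled together were compared by exact permutation. Alternatives were other pseudocounts and filters, edgeR 4.0.16, DESeq2 1.42.0, other scaling, leaving out each library, the replicate number as a block and Eif2s3y presence as a covariate. The fits were tested on simulated data. Named genes are the members, Ercc6 and up to 4 genes per list with the smallest p; genes most like Cdkn1a and Mdm2 could not be sought. Members and lists were chosen with earlier results of these data known.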

Additional observations from a re-analysis of the deposited data

Results flagged for a closer look

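Phlda3 in homozygous replicate 6 had 2114 normalized reads with all libraries scaled together, far from the other 5 homozygous libraries, which had 584 to 936. The gap exceeded Dixon's 95% limit for 6 values. Chance alone flags about 1 group in 20, and 8 genes were checked, of which this was the 1 flagged. In the same library Eif2s3y was also at its highest, at 1562 normalized reads, and Sesn1 and Tp53inp1, at 84.1 and 47.5, were the highest of set 2; the cause was not tested.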

How the results depend on the processing

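Of 651 alternative values for the 7 members, 0 passed an adjusted p under 0.05 and 34 changed sign. Leaving out a library of a set cannot change a difference inside the other set, so some of these values repeat the main estimate. Counts of called features were less stable. For homozygous against wild type (8 called) the count was 5 with a pseudocount of 4, 5 with edgeR, 37 with DESeq2, 3 with the libraries of set 2 alone, 4 with the replicate block on libraries scaled together with no set term (7 without the block) and 2 with Eif2s3y as a covariate, and 2 to 11 without 1 library. For homozygous against heterozygous (0) it was 205 with DESeq2, 17 scaled together with no set term, 92 with the replicate block in the libraries of set 1 alone (0 without the block) and 5 with Eif2s3y, and 0 to 3 without 1 library. For heterozygous against wild type (0) it was 27 with DESeq2 and 2 scaled together, and 0 to 7 without 1 library. Between the sets (5) it was 2 to 7 without 1 library. In the exact permutation test 0 of 20948 features passed after adjustment and 811 had an unadjusted p under 0.05. The causes were not tested.

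Signs changed as follows, as log2 differences. With Eif2s3y as a covariate, Ccng1 was 0.024 for homozygous against wild type, and Bax was -0.106 for heterozygous against wild type. Tp53inp1, heterozygous against wild type, was 0.053 with edgeR, 0.078 with DESeq2, 0.469 scaled together with no set term and 0.464 with the block added to that. Without 1 library, homozygous against wild type ranged from -0.203 to 0.107 (Ccng1), -0.005 to 0.394 (Tp53inp1) and -0.585 to 0.026 (Plk2). Against heterozygous the ranges were -0.055 to 0.430 (Phlda3) and -0.128 to 0.638 (Tp53inp1). For heterozygous against wild type they were -0.227 to 0.414 (Bax) and -0.389 to 0.377 (Tp53inp1). Between the sets they were -0.265 to 0.661 (Phlda3), -0.442 to 0.181 (Bax), -0.176 to 0.297 (Gdf15) and -0.256 to 0.081 (Plk2). For all 6 homozygous against wild type they were -0.295 to 0.015 (Ccng1) and -0.569 to 0.044 (Plk2).

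Libraries of the same replicate number did not deviate together in every pair (correlations of -0.07 to 0.14), so the block was kept as an alternative. Depth limits Gdf15, at 4 to 22 reads per library.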
